A study of Mus musculus with 18 samples.

Results

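The comparison described here sets control mouse airway 72 hr after naphthalene against control airway 3 hr after it. Its members were the arrays titled as control at those times, 3 at each time, which makes 6 of the 18 arrays of the study. The RNA came from terminal bronchiolar epithelial cells of the lung of mice that mixed the strains FVB/N and C57BL/6. The animals of the 3 and 72 hr groups, control or Cebpa d/d, had received naphthalene. Control arrays at 0 hr served to show where a level started, and 6 Cebpa d/d arrays at the same times, in which the gene of the transcription factor C/EBP alpha is altered, served to show whether the change differed by genotype. The sources used here do not give the ages of the mice, the promoter that drove the deletion, the cells that carry it, or whether animals were pooled. Nor do they tie the arrays of a group to separate animals. The 3 hr control arrays came from both sexes and so not from a single animal, but the spread that the p-values measure may still be technical in part.

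Naphthalene is toxic to club cells, the secretory cells of the small airways, because their cytochrome P450 Cyp2f2 converts it into a reactive epoxide that depletes glutathione. Damaged cells swell and are shed during the first day, and the surviving epithelium then spreads, divides and differentiates again. The transcription factor NRF2 induces genes of glutathione synthesis and detoxification after electrophile stress, ATF4 induces amino acid transport and synthesis genes in the integrated stress response, and the mitotic genes are transcribed in cells between S phase and division.

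The arrays carried the deposited log2 values of 19938 genes, and their number limits the precision. Correlations between arrays ran from 0.982 to 0.987 within the 3 hr group and from 0.992 to 0.994 within the 72 hr group. Control 3 hr replicate 3 had the narrowest spread of values of the 6, with an interquartile range of 2.51 on the log2 scale. The other 3 hr arrays had 2.66 and 2.7, and the 72 hr arrays 2.79 to 2.89. Array medians were 6.55 to 6.65 at 3 hr and 6.48 to 6.54 at 72 hr. Both measures thus differed between the times without overlap, and the cause was not tested. All 3 control arrays at 72 hr were from females by the level of Xist, the RNA that silences an X chromosome, whereas only replicate 2 was at 3 hr. The Cebpa d/d arrays were split in the same way, with 1 female array at 3 hr and 3 at 72 hr, so the effects of sex and time cannot be fully told apart. Cebpa itself read 9.69 to 10.52 in the 6 control arrays and 7.90 to 9.07 in the 6 Cebpa d/d arrays. The array labelled control 0 hr replicate 1 read 7.89 for Cebpa and was kept out of every 0 hr mean. The library labelled Cebpa d/d 72 hr replicate 1 also stood apart: it read 5.32 for the repair-associated gene Psca, where the other Cebpa d/d arrays at 72 hr read 8.34 and 8.10.

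Between 3 and 72 hr in control airway, genes of stress responses were prominent among those that fell and genes of cell division among those that rose. At an adjusted p under 0.05, 1705 genes rose and 910 fell, which is 8.55% and 4.56% of the genes tested. The counts of each list below are to be read against these 2 shares. Few of the changes were large: 401 of the genes that rose and 117 of those that fell had moved by at least 1 on the log2 scale, and 34 and 12 by at least 2. The median difference over all genes was -0.07. After quantile normalization of the gene values it was -0.03, and 1424 genes rose and 1087 fell. The 6 arrays did not overlap between the times in any of the 2615 called genes, nor in many genes that were not called. Over all genes, the called ones included, 17.1% were higher in every 72 hr array and 23.3% were lower. The counts depended on single arrays. Without 72 hr replicate 1, 2 or 3, 1082, 793 and 846 genes rose and 384, 272 and 316 fell, and without 3 hr replicate 2, 552 genes fell. With sex as a term in the model, which leaves 1 female array to carry the 3 hr level against the 72 hr females, 489 genes rose and 315 fell.

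**Figure D1:**
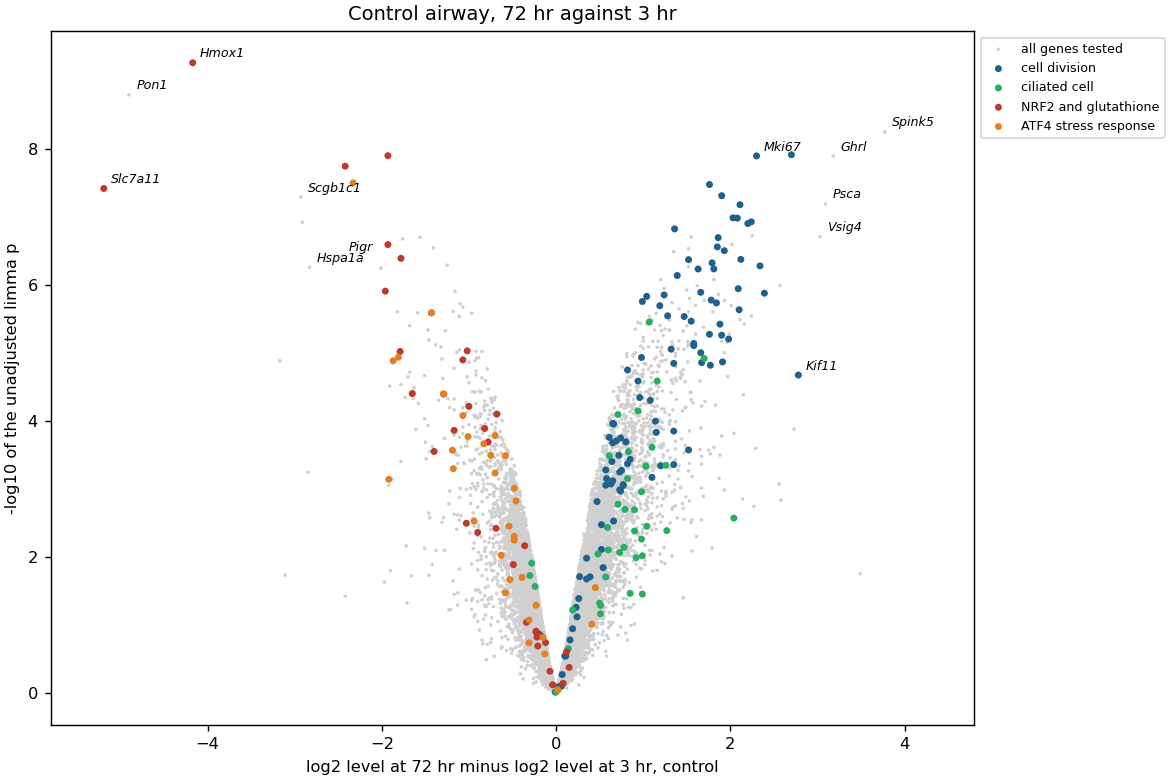
Difference between 72 and 3 hr in control airway for each of the 19938 genes (horizontal axis, log2) against the -log10 of its unadjusted limma p (vertical axis). Coloured points are the members of 4 gene lists; called NRF2 and ATF4 genes lie on the left and called cell division genes on the right, with Slc7a11 at -5.19 and Spink5 at 3.77.

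The largest fall was that of Slc7a11, the cystine carrier that feeds glutathione synthesis (probe set 10498024). Its log2 level lay between 10.98 and 11.35 in the 3 hr arrays and was 6.24, 6.29 and 5.22 in the 72 hr arrays, a 36.5-fold lower mean (difference -5.19 ± 0.27 SE, adjusted p = 6.98e-05). The 3 hr arrays were all high and the 72 hr arrays were near the level of 5.67 in control 0 hr replicates 2 and 3. Pon1, a paraoxonase (probe set 10542983), followed another course: it read 10.85, 10.60 and 10.22 at 3 hr, close to 10.72 at 0 hr, and 5.87, 5.47 and 5.64 at 72 hr. That is a 29.8-fold lower mean (difference -4.90 ± 0.17 SE, adjusted p = 1.62e-05), with no overlap. The other large falls were those of Hmox1, Ces1f, Scgb1c1, Eid3, Il1f9, Hspa1a, Pigr, Srxn1, Atf3 and Aox3, with differences from -4.17 to -2.01. In Il1f9, the cytokine IL-36 gamma, the 3 hr arrays were far apart, at 10.90, 8.43 and 9.76.

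The largest rise was that of Spink5 (probe set 10455395), which encodes LEKTI, an inhibitor of kallikrein-type serine proteases. Its log2 level was 5.40, 5.39 and 5.86 at 3 hr and 9.25, 9.17 and 9.53 at 72 hr, a 13.6-fold higher mean (difference 3.77 ± 0.15 SE, adjusted p = 3.66e-05). The 3 hr arrays were at the 0 hr level of 5.80. Ghrl, which encodes the hormone ghrelin (probe set 10546962), read 8.14, 8.64 and 8.50 at 3 hr and 11.66, 11.73 and 11.45 at 72 hr, a 9.09-fold higher mean (difference 3.18 ± 0.14 SE, adjusted p = 3.66e-05). Here too all 3 hr arrays lay near the 0 hr level, 8.34. The cell surface proteins Psca and Msln rose by 3.09 ± 0.17 and 2.78 ± 0.32. Vsig4, a complement receptor of macrophages, rose by 3.03 ± 0.19 from readings of 4.57, 4.90 and 4.83. For Chil3, a chitinase-like protein of macrophages, the rise of 2.58 ± 0.55 (adjusted p = 0.0208) was lost without 3 hr replicate 2 or without 72 hr replicate 2 or 3. The rise of Orm1, an acute phase plasma protein, by 2.56 ± 0.50 (adjusted p = 0.0154) was lost without 72 hr replicate 2 or 3. Control 3 hr replicate 3 read 8.35 for Orm1, where the other 3 hr arrays read 6.20 and 6.35. The same array was the low one for the hydrolase Cmbl, at 6.84 beside 8.68 and 7.94, and for the spindle motor Kif11, at 4.90 beside 6.09 and 6.14. Cmbl rose by 2.73 ± 0.41 and Kif11 by 2.78 ± 0.32.

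**Figure D2:**
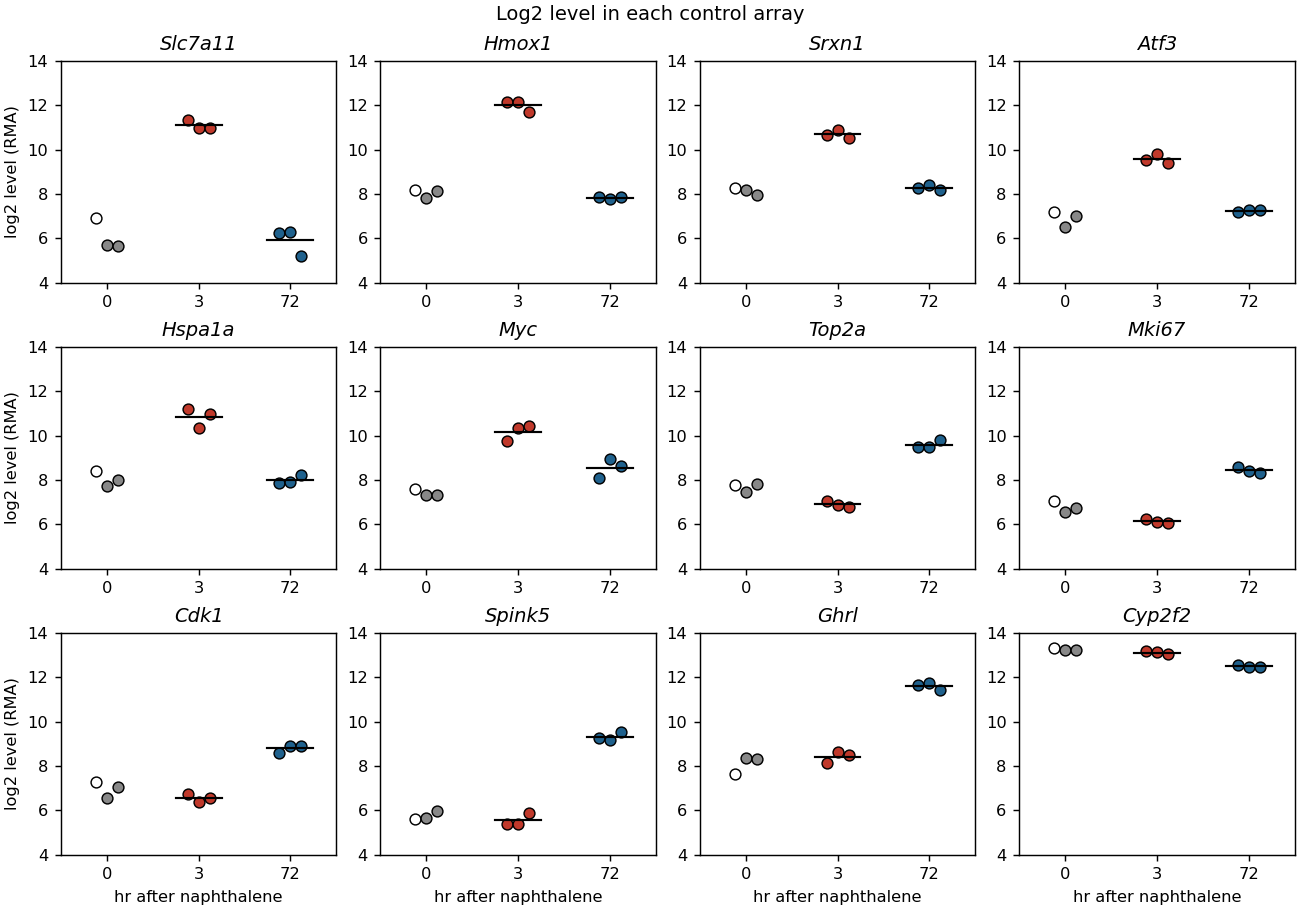
Log2 level (vertical axis) of 12 genes in each control array at 0, 3 and 72 hr after naphthalene (horizontal axis); circles are arrays, lines are means of the 3 arrays at 3 and 72 hr, and the open circle is the array labelled control 0 hr replicate 1. Slc7a11, Hmox1, Srxn1, Atf3 and Hspa1a are high in the 3 hr arrays only, Top2a, Mki67, Cdk1, Spink5 and Ghrl are high at 72 hr, and Cyp2f2 is lowest at 72 hr.

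The NRF2 and glutathione genes were the group with the largest falls. Of 36 measured members 22 fell, where 4.56% of all genes did, the other 14 did not pass, and the median difference of the list was -0.86. Hmox1, the haem oxygenase, read 12.15, 12.14 and 11.72 at 3 hr and 7.85, 7.79 and 7.85 at 72 hr, an 18.1-fold lower mean (difference -4.17 ± 0.13 SE, adjusted p = 1.09e-05). All 72 hr arrays were at the 0 hr level of 7.98. Srxn1, the sulfiredoxin that repairs oxidised peroxiredoxins, read 10.65, 10.87 and 10.55 and then 8.26, 8.39 and 8.17, and fell by 2.42 ± 0.11. Both subunits of the enzyme that makes the first step of glutathione synthesis fell. The catalytic subunit Gclc read 12.75, 12.74 and 12.63 at 3 hr and 10.73, 10.89 and 11.16 at 72 hr (difference -1.78 ± 0.12 SE, adjusted p = 0.000225). The modifier subunit Gclm read 10.05, 9.98 and 9.44 and then 7.86, 7.89 and 7.85 (difference -1.96 ± 0.16 SE, adjusted p = 0.000444). Gclm was back at its 0 hr level of 7.88, and Gclc lay between its 3 hr level and 10.38 at 0 hr. Nqo1, the quinone reductase, fell by 1.93 ± 0.13, Osgin1, an oxidative stress growth inhibitor, by 1.93 ± 0.09, and the thioredoxin reductase Txnrd1 by 1.79 ± 0.19. Abcc1, a pump that exports glutathione conjugates, read 8.51, 8.28 and 8.27 and then 7.24, 7.43 and 7.33, below its 0 hr level of 7.72 (difference -1.02 ± 0.11 SE, adjusted p = 0.00127). Leaving out any 1 of the 6 arrays left 19 to 23 members called.

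Promoters of NRF2 and glutathione genes are shown because that factor, with small MAF proteins, binds the antioxidant response element, and the members fell together. In the RefSeq promoter table of build GRCm38.p6, 33 list members had 45 distinct promoters. The element's core TGACNNNGC was searched on both strands of the 250 bases before the start site. It occurred in 11 of them, or 24.4%, and in 10.2% of 32851 promoters of the same length. Other lists were above that share too, with the core in 21.1% of ATF4, 16.4% of DNA replication and 16.0% of cell division promoters. Median GC content was 58.4% in the NRF2 list and 52.4% in the table. The 3 promoters shown belong to the members that fell with the smallest adjusted p among those with a match; Mafg encodes a small MAF partner of NRF2. Capitals mark the core, which lies here on the opposite strand in all 3, starting 134 bases before the start site in Gclm, 92 in Txnrd1 and 222 in Mafg. A match is a description of these letters and not evidence of binding.
Gclm, chr3:122245307-122245556, plus strand: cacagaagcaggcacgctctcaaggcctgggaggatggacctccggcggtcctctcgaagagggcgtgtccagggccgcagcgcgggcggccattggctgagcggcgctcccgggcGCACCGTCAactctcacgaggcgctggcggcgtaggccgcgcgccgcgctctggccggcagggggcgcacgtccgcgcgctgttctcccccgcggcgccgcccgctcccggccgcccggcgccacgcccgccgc
Txnrd1, chr10:82858956-82859205, plus strand: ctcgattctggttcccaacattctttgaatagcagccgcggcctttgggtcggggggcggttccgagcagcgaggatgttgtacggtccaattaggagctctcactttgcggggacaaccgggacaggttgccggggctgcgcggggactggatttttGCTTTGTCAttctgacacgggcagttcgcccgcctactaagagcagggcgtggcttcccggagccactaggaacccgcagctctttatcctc
Mafg, chr11:120633548-120633797, minus strand: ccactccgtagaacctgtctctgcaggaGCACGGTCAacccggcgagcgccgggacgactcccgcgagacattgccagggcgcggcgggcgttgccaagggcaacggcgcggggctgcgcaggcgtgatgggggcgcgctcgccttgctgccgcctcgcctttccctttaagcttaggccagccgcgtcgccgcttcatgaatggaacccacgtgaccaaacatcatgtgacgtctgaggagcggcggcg

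The ATF4 genes fell as well, and 21 of 33 measured members passed, with a list median of -0.58. Atf3, a stress-induced transcription factor, read 9.56, 9.80 and 9.39 at 3 hr and 7.20, 7.28 and 7.27 at 72 hr, a 5.03-fold lower mean (difference -2.33 ± 0.12 SE, adjusted p = 6.71e-05). Ddit3, the pro-apoptotic factor CHOP, read 10.03, 10.17 and 9.66 and then 7.70, 8.08 and 8.46 (difference -1.87 ± 0.20 SE, adjusted p = 0.00148). Its 72 hr arrays spread around the lower side of 8.64 at 0 hr, and neither gene's times overlapped. Among the amino acid carriers, Slc7a5 fell by 1.81 ± 0.19, its heavy chain Slc3a2 by 1.43 ± 0.13 and the arginine carrier Slc7a1 by 1.07 ± 0.15. Asns, which makes asparagine, fell by 1.19 ± 0.20, the glutathione-degrading enzyme Chac1 by 1.29 ± 0.16, and the methionyl-tRNA synthetase Mars1 by 0.70 ± 0.11. Ppp1r15a, which reverses the translation block through eIF2 alpha, fell by 1.01 ± 0.16, and the stress sensor Sesn2 by 0.83 ± 0.13. The number called was 14 when 72 hr replicate 3 was left out.

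Of the ATF4 list, 30 members had 38 promoters in the table. The composite element TGATGNAA occurred on either strand in 9 of them, or 23.7%, against 3.5% of all promoters. Its share was 4.4% in the NRF2, 3.2% in the cell division and 1.8% in the DNA replication list. Median GC content was 59.6% in the ATF4 list and 52.4% in the table. This motif was added after the values had been seen, and a match is again not evidence of binding. Promoters of Atf3 and Chac1 are shown as those of the called members with the smallest adjusted p that hold the element. Capitals mark the element, again read on the opposite strand, starting 110 bases before the start in Atf3 and 193 in Chac1.
Atf3, chr1:191183334-191183583, minus strand: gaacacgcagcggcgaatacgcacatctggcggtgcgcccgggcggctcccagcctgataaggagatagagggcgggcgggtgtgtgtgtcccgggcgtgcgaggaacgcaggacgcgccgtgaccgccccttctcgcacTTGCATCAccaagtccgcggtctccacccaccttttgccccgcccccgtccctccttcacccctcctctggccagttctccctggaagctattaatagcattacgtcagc
Chac1, chr2:119350992-119351241, plus strand: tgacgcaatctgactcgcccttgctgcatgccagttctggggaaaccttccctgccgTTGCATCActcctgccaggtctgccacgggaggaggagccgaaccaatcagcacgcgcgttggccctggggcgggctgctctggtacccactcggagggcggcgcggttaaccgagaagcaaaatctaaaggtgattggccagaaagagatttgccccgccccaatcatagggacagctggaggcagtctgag

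Heat shock genes were mixed in size but ran the same way where they passed. Of 19 members 7 fell, or 36.8%, where 4.56% of all genes did. The median was -0.52, and 3 fell with sex as a term. Hspa1a, the inducible HSP70 chaperone, read 11.19, 10.36 and 10.99 at 3 hr and 7.89, 7.93 and 8.22 at 72 hr, a 7.11-fold lower mean (difference -2.83 ± 0.20 SE, adjusted p = 0.000254). Its near-identical copy Hspa1b shares sequence with it, so the reading may belong to either. The co-chaperone Dnajb1 fell by 1.64 ± 0.20, the small heat shock protein Hspb1 by 1.13 ± 0.20 and the HSP70 co-chaperone Bag3 by 0.86 ± 0.13. The calls of Hspb1 and Bag3 were lost with sex as a term. The unfolded protein response of the endoplasmic reticulum followed only in part. Of 22 genes 5 fell and 1 rose, or 22.7% and 4.55%, where 4.56% and 8.55% of all genes did. The median was 0.01, and 1 to 3 fell when any 1 array was left out and 2 with sex as a term. The largest fall of that response was in Dnajb9, a chaperone of the reticulum, by 1.32 ± 0.13, from 10.18, 9.86 and 10.24 to 8.78, 8.60 and 8.95. Xbp1, the transcription factor of that response, fell by 0.56 ± 0.15 (adjusted p = 0.0467), a call lost in 5 of the 6 fits that left out an array. The single riser, the disulfide isomerase Pdia4, differed by 0.62 at the probe set used and by -0.16 at a dimmer one.

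Immediate early genes are switched on within minutes to hours of a stimulus. Of 40 members 14 fell, or 35%, where 4.56% of all genes did, with a median of -0.58. Egr1, a zinc finger transcription factor, read 8.61, 9.87 and 9.67 at 3 hr and 7.44, 7.96 and 7.43 at 72 hr (difference -1.78 ± 0.31 SE, adjusted p = 0.00979). Jun, a subunit of the AP-1 factor, read 9.97, 10.13 and 9.89 and then 8.74, 8.86 and 9.05 (difference -1.11 ± 0.12 SE, adjusted p = 0.00124). Fos, its partner, read 7.06, 8.10 and 8.20 and then 6.69, 7.04 and 6.93, a difference of -0.90 ± 0.28 that did not pass (adjusted p = 0.0677). In Egr1 and Fos, 3 hr replicate 1 was the low array of its group. Without that array 28 members of the list fell, and without 72 hr replicate 1, 2 or 3 the number was 8, 7 and 7. Gadd45a, a growth arrest gene, fell by 1.22 ± 0.16 and the kinase gene Plk3, listed with the targets of p53, by 1.49 ± 0.26.

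Myc, which drives ribosome production, read 9.76, 10.35 and 10.43 at 3 hr and 8.10, 8.95 and 8.64 at 72 hr, a 3.06-fold lower mean (difference -1.61 ± 0.24 SE, adjusted p = 0.0054). The 72 hr arrays were all below those of 3 hr and all above the 0 hr level of 7.34. Myc belongs to a list of 25 genes of ribosome biogenesis, of which 15 fell, or 60%, where 4.56% of all genes did. The list median was -0.58. Gnl3, a nucleolar GTPase, read 9.83, 10.22 and 9.97 and then 8.32, 8.56 and 8.76 (difference -1.46 ± 0.14 SE, adjusted p = 0.00108). Wdr43 fell by 1.24 ± 0.16, Nop58, a core protein of small nucleolar RNPs, by 1.07 ± 0.16, Heatr1 by 0.93 ± 0.14 and the helicase Ddx21 by 0.92 ± 0.12. The number that fell was 9 when 72 hr replicate 2 was left out.

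Metallothioneins, which bind zinc and other metals, were high at both times. Mt1 read 11.20, 12.07 and 12.07 at 3 hr and 11.78, 11.61 and 11.37 at 72 hr, and the times overlapped (difference -0.19 ± 0.23 SE, adjusted p = 0.584). Mt2 had a mean of 12.05 ± 0.68 (SD, n = 3) and then of 11.80 ± 0.22, and its times overlapped too (difference -0.25 ± 0.30 SE, adjusted p = 0.576). Both genes were above their 0 hr levels of 9.62 and 8.61 in every array at both times. The zinc importers Slc39a10 and Slc39a4 rose by 1.25 ± 0.12 and 1.08 ± 0.14, and they were the members of that list of 10 that passed. In glycolysis, 3 of 15 genes fell and 3 rose, or 20% each way, where 4.56% and 8.55% of all genes did. The glucose carrier Slc2a1 fell by 1.06 ± 0.19 and hexokinase Hk2 by 1.11 ± 0.17, while lactate dehydrogenase Ldha rose by 0.56 ± 0.15. The calls of the risers were weak: 0 to 2 rose when any 1 array was left out, 0 without 72 hr replicate 2, and 0 with sex as a term. The call of Ldha was lost in 5 of those 6 fits.

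Cell division was the group with the most risers. Over 4 lists of mitotic genes, 83 of 101 measured members rose, where 8.55% of all genes did, and the median difference was 1.10. By role, 18 of 21 kinases, cyclins and regulators of mitotic entry rose, 27 of 29 spindle and cytokinesis genes, 22 of 29 centromere and kinetochore genes and 16 of 22 genes of chromosome condensation. Leaving out any 1 array left 75 to 83 of the 101 called, and with sex as a term 61 were called.

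Mki67, the proliferation antigen that coats mitotic chromosomes (probe set 10568714), read 6.25, 6.13 and 6.07 at 3 hr and 8.59, 8.42 and 8.33 at 72 hr, a 4.92-fold higher mean (difference 2.30 ± 0.10 SE, adjusted p = 3.66e-05). Top2a, the topoisomerase that untangles sister chromatids (probe set 10390707), read 7.05, 6.86 and 6.80 and then 9.50, 9.50 and 9.81, a 6.5-fold higher mean (difference 2.70 ± 0.12 SE, adjusted p = 3.66e-05). Cdk1, the kinase that starts mitosis (probe set 10369815), read 6.74, 6.39 and 6.56 and then 8.58, 8.92 and 8.91, a 4.72-fold higher mean (difference 2.24 ± 0.13 SE, adjusted p = 0.000126). In all 3 genes the times were far apart and the 3 hr arrays lay at or below the 0 hr levels, which were 6.65, 7.65 and 6.82. A dimmer probe set for Top2a read 4.55 on average at 3 hr and 4.48 at 72 hr.

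Among the cyclins and checkpoint kinases, Ccna2 rose by 1.86 ± 0.12, Ccnb2 by 1.78 ± 0.15, the spindle checkpoint kinases Bub1 by 2.12 ± 0.15 and Ttk by 1.36 ± 0.08, and the phosphatase Cdc25c by 1.24 ± 0.10. Foxm1, a transcription factor of the G2 and M phases, read 5.80, 5.81 and 5.61 at 3 hr and 6.79, 6.58 and 6.78 at 72 hr (difference 0.98 ± 0.10 SE, adjusted p = 0.00141). On the spindle, the cytokinesis exchange factor Ect2 rose by 2.20 ± 0.13, the spindle assembly factor Tpx2 by 1.85 ± 0.12, the midzone protein Prc1 by 1.84 ± 0.16 and the abscission protein Cep55 by 1.81 ± 0.13. At the kinetochore, Cenpk rose by 2.39 ± 0.19, the motor Cenpe by 2.34 ± 0.17, Knl1 by 2.10 ± 0.18, Cenpf by 2.08 ± 0.12 and Nuf2 by 2.03 ± 0.12, and Birc5, a subunit of the chromosomal passenger complex, by 1.76 ± 0.09. The condensin subunits Smc2, Ncapg, Ncapg2 and Ncaph rose by 1.93 ± 0.13, 1.76 ± 0.17, 1.32 ± 0.14 and 0.96 ± 0.12. None of these genes had overlapping times.

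The promoters of the 3 genes followed above are shown because mitotic genes carry CCAAT boxes, bound by NF-Y, and a cell cycle homology region, bound by the MuvB complexes, and because the members rose together. Of the cell division list, 86 genes had 94 promoters in the table. CCAAT on either strand occurred in 64 of them, or 68.1%, against 33.8% of all promoters. At least 2 copies occurred in 41.5% against 10.1%. The letters TTTGAA of the homology region occurred in 38.3% against 16.0%. Their share was 22.2% in the NRF2, 16.4% in the DNA replication and 13.2% in the ATF4 list. In the DNA replication, ATF4 and NRF2 lists CCAAT occurred in 56.4%, 47.4% and 35.6% of promoters. Median GC content was 59.6% in the cell division list and 52.4% in the table. Capitals mark CCAAT, or ATTGG where it is read on the opposite strand, and TTTGAA or TTCAAA. The 3 belong to the called members with the smallest adjusted p among those whose promoter holds at least 2 CCAAT boxes and TTTGAA. That both motifs occur in all 3 was thus set by the choice. There are 3 CCAAT boxes in Mki67, 6 in Top2a and 3 in Cdk1, and 2 copies of TTTGAA in each, with no overlap between the 2 kinds.
Mki67, chr7:135716380-135716629, minus strand: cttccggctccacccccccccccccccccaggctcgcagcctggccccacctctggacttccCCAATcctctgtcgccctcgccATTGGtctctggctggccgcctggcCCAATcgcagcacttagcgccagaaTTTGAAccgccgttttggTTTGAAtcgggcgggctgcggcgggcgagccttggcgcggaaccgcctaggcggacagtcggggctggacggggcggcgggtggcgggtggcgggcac
Top2a, chr11:99024190-99024439, minus strand: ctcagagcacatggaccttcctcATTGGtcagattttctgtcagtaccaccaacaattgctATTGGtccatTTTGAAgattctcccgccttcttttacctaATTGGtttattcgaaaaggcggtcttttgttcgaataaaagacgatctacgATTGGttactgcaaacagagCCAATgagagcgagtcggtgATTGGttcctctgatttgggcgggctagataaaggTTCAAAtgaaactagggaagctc
Cdk1, chr10:69352913-69353162, minus strand: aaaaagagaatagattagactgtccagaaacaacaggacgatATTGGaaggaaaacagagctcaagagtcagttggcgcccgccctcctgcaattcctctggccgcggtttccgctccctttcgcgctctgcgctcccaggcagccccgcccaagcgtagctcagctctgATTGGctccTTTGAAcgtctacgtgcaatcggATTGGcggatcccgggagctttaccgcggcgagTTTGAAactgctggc

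DNA replication genes rose less. Of 55 measured members 29 rose, and the median difference was 0.49. The helicase Hells, a chromatin remodeller of S phase, read 6.28, 6.53 and 6.10 at 3 hr and 7.71, 8.05 and 8.21 at 72 hr (difference 1.69 ± 0.16 SE, adjusted p = 0.000808). Both subunits of ribonucleotide reductase, which makes deoxynucleotides, rose, Rrm1 by 1.33 ± 0.13 and Rrm2 by 1.43 ± 0.16. Of the replicative helicase, Mcm4 rose by 0.99 ± 0.16, Mcm3 by 0.96 ± 0.14 and Mcm7 by 0.67 ± 0.12, calls lost with sex as a term. Mcm5 differed by 0.28 ± 0.09 and did not pass (adjusted p = 0.0742). Pcna, the sliding clamp, read 11.17, 11.21 and 11.14 and then 11.15, 11.31 and 11.26, with overlap (difference 0.07 ± 0.09 SE, adjusted p = 0.613), and its difference was -0.03 after quantile normalization. Every one of these 6 arrays was above the 0 hr level of Pcna, 10.80. Without 72 hr replicate 2, and also without replicate 3, 14 members rose, and with sex as a term 9 did. The E2F core TTTNNCGC occurred on either strand in 14 of 55 promoters of the list, or 25.5%, against 4.3% of all promoters. Its share was 16.0% in the cell division list and 2.2% in the NRF2 list.

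Genes of homologous recombination and histone genes rose in part. Of 16 repair genes 8 rose, with a median of 0.34, and 3 to 5 did when any 1 array was left out and 2 with sex as a term. The meiotic and checkpoint ATPase Trip13 rose by 0.80 ± 0.12 and Brca1 by 0.72 ± 0.10, while the calls of Brca2 and Rad54b were lost on leaving out any array. The call of Trip13 was lost with sex as a term. Of 12 histone genes 6 rose, H2bc4 by 1.19 ± 0.11, H2bc14 by 1.15 ± 0.14 and H1f2 by 1.12 ± 0.17; copies of histone genes are near identical and share probes, so single members are uncertain. Without 3 hr replicate 3, or 72 hr replicate 2 or 3, the histone count was 4, 3 and 3, and it was 3 with sex as a term. Targets of p53 went both ways. Of 22 members 4 rose and 3 fell, or 18.2% and 13.6%, where 8.55% and 4.56% of all genes did. The number that rose was 2 without 72 hr replicate 2 or 3 or with sex as a term. Mdm2, the negative regulator of p53, read 9.48, 9.56 and 9.60 and then 9.42, 9.72 and 9.46, and overlapped (difference -0.01 ± 0.11 SE, adjusted p = 0.948). The sign of its difference turned with the processing.

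**Figure D3:**
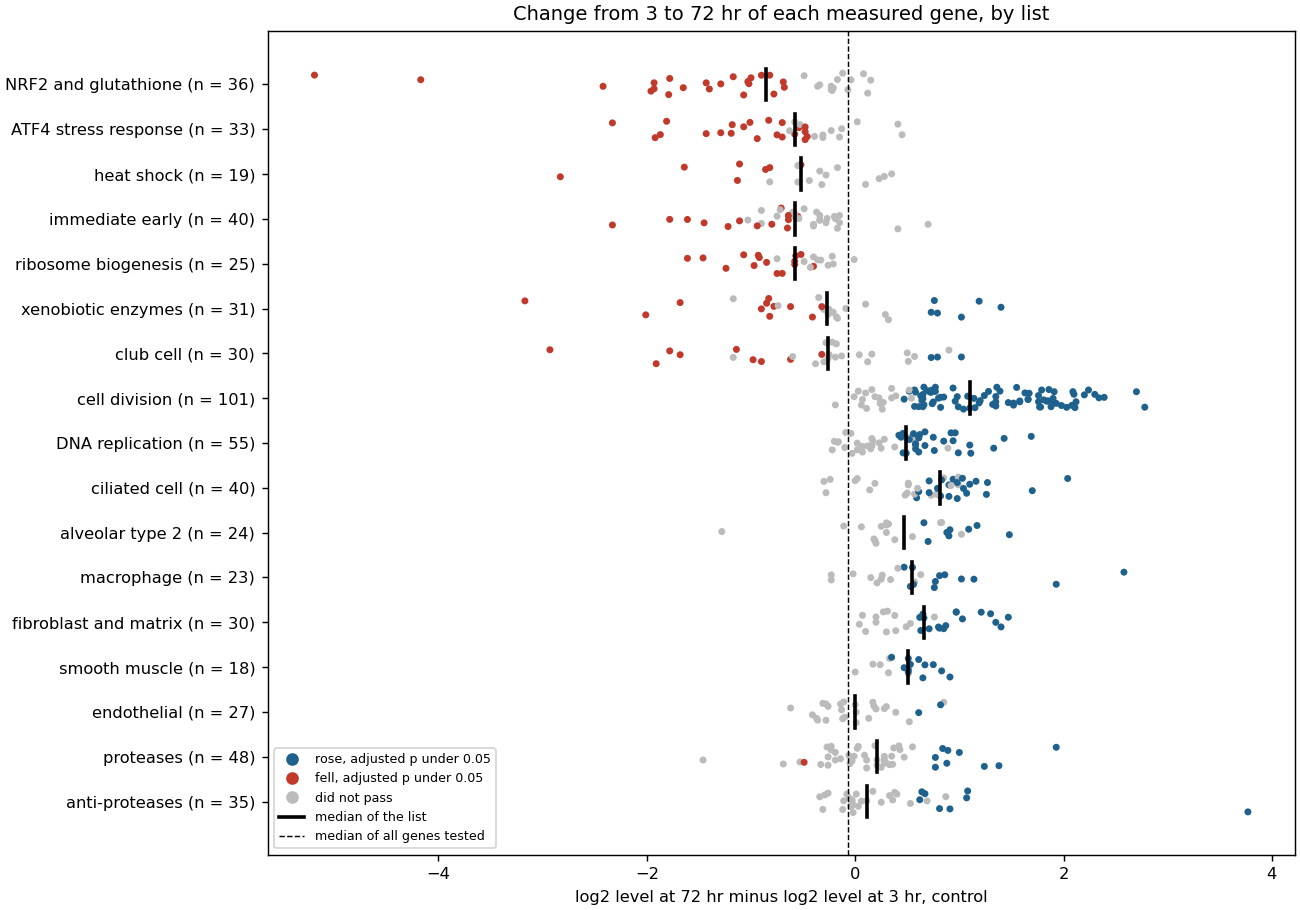
Difference in log2 level between 72 and 3 hr in control airway (horizontal axis) of each measured member of 17 gene lists (vertical axis); black bars are list medians and the dashed line is the median of all genes, -0.07. Called members of the stress lists lie below 0 and those of the cell division list above it, with medians of -0.86 for NRF2 genes and 1.10 for cell division.

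Club cell genes were mixed. Of 30 markers 9 fell and 3 rose, with a median of -0.26. Only 6 fell and 1 rose without 72 hr replicate 2 or 3, and with sex as a term 7 fell and 0 rose. Scgb1a1, the secretoglobin that defines the cell, read 12.73, 12.70 and 12.74 at 3 hr and 12.79, 12.71 and 12.79 at 72 hr, with overlap (difference 0.04 ± 0.08 SE, adjusted p = 0.78). Scgb3a2, another secretoglobin, read 12.22, 12.12 and 12.22 and then 11.91, 11.98 and 12.01; the times did not overlap, but the difference of -0.22 ± 0.09 did not pass (adjusted p = 0.13). Cyp2f2, the enzyme that activates naphthalene (probe set 10551293), read 13.17, 13.13 and 13.04 and then 12.55, 12.45 and 12.48, a 1.54-fold lower mean (difference -0.62 ± 0.09 SE, adjusted p = 0.00461). The largest fall in the list was that of the secretoglobin Scgb1c1, from 10.79, 10.32 and 10.25 to 7.66, 7.36 and 7.57, a 7.6-fold lower mean (adjusted p = 7.86e-05). Chad, a matrix protein, fell by 1.91 ± 0.23, Lypd2 by 1.78 ± 0.22 and Gabrp, a subunit of the GABA receptor, by 1.14 ± 0.12. In these bulk samples fewer cells of a type and less RNA per cell cannot be told apart.

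Enzymes that act on foreign compounds were mixed likewise: 11 of 31 fell and 6 rose, with a median of -0.27. Without 72 hr replicate 2 or 3 the number that rose was 3 and 2, and with sex as a term 5 fell and 2 rose. The carboxylesterase Ces1f read 9.44, 7.82 and 8.38 at 3 hr and 5.50, 5.39 and 5.26 at 72 hr (difference -3.17 ± 0.34 SE, adjusted p = 0.00148), although its gene family is close in sequence. The aldehyde oxidase Aox3 read 11.03, 11.07 and 10.67 and then 9.15, 8.76 and 8.84 (difference -2.01 ± 0.15 SE, adjusted p = 0.000254). Gsta3, a glutathione transferase, fell by 1.68 ± 0.19, and Ephx1, the epoxide hydrolase, by 0.82 ± 0.12, a call lost with sex as a term. The cytochrome Cyp2e1 went the other way and rose by 1.19 ± 0.17. At 3 hr the levels of Aox3 and Gsta3 lay close to those at 0 hr, 11.18 and 11.50.

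Ciliated cells are the other main cell of this epithelium, and 21 of 40 of their markers rose, with a median of 0.81. Cfap52, an axonemal protein, read 8.44, 8.05 and 7.66 at 3 hr and 9.75, 9.64 and 9.84 at 72 hr, a 3.24-fold higher mean (difference 1.70 ± 0.18 SE, adjusted p = 0.00143). Cfap126 rose by 1.07 ± 0.10, the dynein light chain Dynlrb2 by 1.16 ± 0.14, Tekt1, a tektin of the axoneme, by 0.94 ± 0.13 and the cadherin Cdhr4 by 1.10 ± 0.18. Foxj1, the master factor of motile cilia, read 7.51, 7.18 and 6.95 and then 7.75, 7.71 and 7.64, without overlap, and its difference of 0.48 ± 0.14 did not pass (adjusted p = 0.0597). The summed linear level of the 40 markers was 33088, 26646 and 20627 in the 3 hr arrays and 41887 to 47019 in the 72 hr arrays, so the 3 hr arrays differed among themselves. The count followed single arrays: it was 32 without 3 hr replicate 1, 13 and 15 without 3 hr replicates 2 and 3, and 13, 10 and 10 without 72 hr replicates 1, 2 and 3. With sex as a term 8 rose.

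Markers of cells beneath or beyond the airway epithelium were read in these arrays, and some also moved. At 3 hr the linear levels of endothelial markers summed to 10118 to 12818 and those of alveolar type 1 markers to 10478 to 12108. A change in these arrays can thus come from cells other than the airway epithelium, and the share of each was not tested. Of 30 fibroblast and matrix genes 17 rose, with a median of 0.66, and 11 rose with sex as a term. Fn1, fibronectin of the provisional matrix, read 9.14, 9.66 and 9.33 at 3 hr and 10.92, 10.66 and 10.76 at 72 hr, a 2.65-fold higher mean (difference 1.40 ± 0.14 SE, adjusted p = 0.00122). The collagen chain Col6a3 rose by 1.35 ± 0.09 and the microfibril protein Mfap5 by 1.30 ± 0.12. Col3a1, a fibrillar collagen, rose by 0.97 ± 0.10, and elastin, Eln, by 1.03 ± 0.11. Smooth muscle markers rose in 12 of 18, with a median of 0.51: the actin Acta2 rose by 0.53 ± 0.09, and the differences of Tagln, 0.65 ± 0.12, and of Actg2, 0.61 ± 0.11, were no longer called without 72 hr replicate 2 or 3. The smooth muscle count was 7 without 3 hr replicate 2 or 3, 4, 3 and 1 without 72 hr replicates 1, 2 and 3, and 1 with sex as a term.

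Macrophage markers rose in 12 of 23, with a median of 0.55. Adgre1, which encodes the F4/80 antigen, read 6.66, 6.35 and 6.18 at 3 hr and 7.52, 7.30 and 7.80 at 72 hr (difference 1.14 ± 0.16 SE, adjusted p = 0.0046). Mrc1, the mannose receptor, rose by 0.81 ± 0.11, and the complement components C1qc and C1qa by 0.86 ± 0.12 and 0.76 ± 0.12. The call of C1qa was lost with sex as a term. The protease Ctsk rose by 1.93 ± 0.39, from readings that included 6.38 in 3 hr replicate 3 beside 7.85 and 8.05. The count was 8 without 3 hr replicate 1, 7 without 3 hr replicate 2, and 6 and 5 without 72 hr replicates 2 and 3; it was also 7 after quantile normalization and 5 with sex as a term. Neutrophil markers fell in 2 of 17, or 11.8%, where 4.56% of all genes did. The summed level of the 17 overlapped, at 1840 to 5278 in the 3 hr arrays and 2634 to 5249 in the 72 hr arrays. The number that fell was 1 without 3 hr replicate 3 or 72 hr replicate 1 or 2, 0 without 72 hr replicate 3 and 3 without 3 hr replicate 2, and with sex as a term 0 fell and 1 rose.

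The summed linear levels of the marker lists stand beside these counts. The club cell sum was 60321 to 70876 at 3 hr and 52378 to 53355 at 72 hr, a ratio of means of 0.80. The fibroblast sum went from 14701 to 19025 at 3 hr to 25046 to 27805 at 72 hr, with a ratio of 1.56. The macrophage sum went from 4601 to 5960 at 3 hr to 7384 to 10090 at 72 hr, with a ratio of 1.64, and the smooth muscle sum from 11409 to 13900 to 17851 to 19563, with a ratio of 1.44. None of these 4 sums overlapped between the times, and their part in the rise of cell division genes and in the fall of club cell genes was not tested. The alveolar type 2 sum rose too, from 30457 to 33912 at 3 hr to 38597 to 49233 at 72 hr, with a ratio of 1.35. The alveolar type 1 sum went from 10478 to 12108 to 14013 to 15069, with a ratio of 1.31. The cardiac muscle sum went from 6872 to 7395 to 8475 to 9804, with a ratio of 1.25, while the median difference of that list was -0.22. These sums did not overlap between the times either. The endothelial sum overlapped, at 10118 to 12818 and 10082 to 13059.

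Alveolar type 2 cells make surfactant, and 8 of 24 of their markers rose, with a median of 0.47. Sftpc, the defining surfactant protein, read 12.96, 13.08 and 13.04 and then 13.21, 13.18 and 13.31, and did not pass (difference 0.20 ± 0.09 SE, adjusted p = 0.155). Sftpb, a surfactant protein that club cells also make, read 9.98, 10.12 and 10.05 and then 10.82, 10.75 and 10.70 (difference 0.70 ± 0.09 SE, adjusted p = 0.0029). The transcription factor Etv5 rose by 1.48 ± 0.20, the phosphate carrier Slc34a2 by 1.09 ± 0.15 and the calcium-binding protein S100g by 1.17 ± 0.14. The calls of Etv5 and Slc34a2 were lost with sex as a term. Without 72 hr replicate 3 the number of type 2 markers that rose was 5. With sex as a term 2 rose. Of 17 alveolar type 1 markers 4 rose and 1 fell, or 23.5% and 5.88%, with a median of 0.28. The number of those that rose was 2 to 4 when any 1 array was left out and 0 with sex as a term. Several other lists held a single riser, or 4.17% to 10% of their members, where 8.55% of all genes rose. Msln, the mesothelin of the mesothelium, rose by 2.78 ± 0.32 and was the only one of 10 mesothelial markers called. The basal list of 13 held Snai2, the lymphoid list of 19 Cd7, and the list of 10 tuft cell and ionocyte markers Alox5ap, beside Atp6v1c2, which fell by 1.02 ± 0.12. These 5 calls held whichever array was left out. Ddc of 12 neuroendocrine markers, Actc1 of 24 cardiac muscle markers and Tnnt3 of 18 skeletal muscle markers rose by 0.54 ± 0.14, 0.67 ± 0.16 and 0.42 ± 0.11, calls lost in 6, 3 and 5 of the 6 fits that left out an array. The cardiac list also held a gene that fell, Nppb, by 0.48 ± 0.11, a call lost in 4 of those fits. Of 17 mucous cell markers 4 fell, and 2 did without 3 hr replicate 3 or any 72 hr array. Among them was Pigr, which carries immunoglobulin A across the epithelium, from 8.73, 9.32 and 8.91 to 6.29, 6.57 and 6.71 (difference -2.46 ± 0.17 SE, adjusted p = 0.000214). The mucous marker that rose was Agr2, a disulfide isomerase for mucins, by 1.90 ± 0.19.

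Among secreted and injury-associated genes, 5 of 25 repair epithelial genes rose and 2 fell, and 3, 2 and 3 rose without 3 hr replicate 1 and 72 hr replicates 2 and 3. The number that fell was 4 without 3 hr replicate 1 and 1, 0, 0 and 1 without 3 hr replicate 3 and 72 hr replicates 1, 2 and 3, and with sex as a term 1 rose and 3 fell. Clu, the chaperone clusterin, read 9.31, 10.07 and 10.04 at 3 hr and 11.97, 11.89 and 11.88 at 72 hr, a 4.31-fold higher mean (difference 2.11 ± 0.19 SE, adjusted p = 0.000717). Ecm1 rose by 1.48 ± 0.24, and the keratin gene Krt7 by 0.70 ± 0.15, calls lost with sex as a term. Of the acute phase and secreted defence genes 5 of 23 rose and 2 fell. The number that rose was 3 and 2 without 3 hr replicate 3 and 72 hr replicate 3, the number that fell was 6 without 3 hr replicate 1, and with sex as a term 2 rose and 1 fell. Those that fell were Pigr, described above, and the trefoil factor Tff2, by 0.62 ± 0.11. The acidic chitinase Chia1 read 7.98, 8.63 and 8.18 and then 10.46, 10.21 and 10.14, a 4.02-fold higher mean (difference 2.01 ± 0.17 SE, adjusted p = 0.000563). Among 34 cytokines and their enzymes 4 fell and 3 rose, or 11.8% and 8.82%, where 4.56% and 8.55% of all genes did. The share that rose was thus near that of all genes. The number that fell was 8 without 3 hr replicate 1 and 2, 2 and 1 without 72 hr replicates 1, 2 and 3. The number that rose was 1 without 72 hr replicate 2 or 3, and with sex as a term 1 rose and 1 fell. Cxcl17, a chemokine of mucosal surfaces, rose by 1.43 ± 0.17. Ptgs2, the inducible cyclooxygenase, fell by 0.87 ± 0.12, and its 72 hr arrays, at 10.16, 10.14 and 10.46, were still above the 0 hr level of 9.12.

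Of 48 protease genes 9 rose and 1 fell, or 18.8% and 2.08%, where 8.55% and 4.56% of all genes did, and the median was 0.21. With sex as a term 4 rose and 3 fell and the median was 0.01, and with female arrays only 9 rose and 5 fell. The gene that fell, Pcsk6, differed by -0.49 ± 0.13, a call lost in 5 of the 6 fits that left out an array. Mmp2, a gelatinase of stromal cells, read 9.03, 9.06 and 8.48 at 3 hr and 10.48, 10.08 and 10.13 at 72 hr (difference 1.38 ± 0.18 SE, adjusted p = 0.00304). The lysosomal protease Lgmn rose by 1.24 ± 0.10, the membrane serine protease Tmprss2 by 0.89 ± 0.10 and the cathepsins Ctsh and Ctsd by 0.88 ± 0.13 and 0.84 ± 0.14. The calls of Ctsh and Ctsd were lost with sex as a term. Of 35 inhibitors 8 rose, with a median of 0.11. Slpi, the leukocyte protease inhibitor of airway mucus, had a mean of 7.28 ± 0.15 (SD, n = 3) at 3 hr and of 7.96 ± 0.04 at 72 hr, without overlap (difference 0.67 ± 0.10 SE, adjusted p = 0.00562). Serpinb6b rose by 1.08 ± 0.16 and the cystatin Cstb by 0.81 ± 0.10. Besides Spink5, the differences of the called inhibitors reached at most 1.08. Without 72 hr replicate 2 or 3 the number of inhibitors that rose was 5, and with sex as a term it was 4.

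Cebpa, the gene altered in the other genotype, itself fell in control airway. It read 10.52, 10.30 and 10.32 at 3 hr and 9.69, 9.80 and 9.87 at 72 hr, without overlap, and 10.12 at 0 hr (difference -0.60 ± 0.10 SE, adjusted p = 0.00938). With sex as a term the difference was -0.52 and was not called (adjusted p = 0.112). Its relative Cebpb, induced in inflammation, fell by 0.48 ± 0.10, a call lost without any one of the 72 hr arrays, and Cebpd differed by -0.41 ± 0.21 and did not pass (adjusted p = 0.199). Klf5, an epithelial transcription factor, fell by 0.91 ± 0.10, and Spdef, which directs mucous cell fate, by 0.48 ± 0.11. The call of Spdef was lost in 4 of the 6 fits that left out an array, and also with sex as a term. Those 4 members that fell, Cebpa, Cebpb, Klf5 and Spdef, were among 34 genes of cell fate and signalling. They made up 11.8% of that list, where 4.56% of all genes fell. Of that list 6 fell without 3 hr replicate 1, 2 without 72 hr replicate 2 or 3, and 1 with sex as a term. Of 17 clock genes 3 fell and 1 rose, or 17.6% and 5.88%, where 4.56% and 8.55% of all genes did. Nfil3, Nr1d1 and Arntl fell by 1.03 ± 0.14, 0.91 ± 0.13 and 0.63 ± 0.13, and the call of Arntl was lost without 72 hr replicate 2 or 3, so that 2 of the list then fell. Hlf rose by 0.56 ± 0.13, a call lost in 5 of the 6 fits that left out an array.

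Set against control 0 hr replicates 2 and 3, the lists took different courses. These differences share the 3 and 72 hr arrays with the comparison above and are a description only. The median of the NRF2 list was 0.62 above the 0 hr level at 3 hr and stood at -0.05 at 72 hr. That of the ATF4 list was 0.79 at 3 hr and 0.07 at 72 hr, and that of the ribosome biogenesis list 0.60 and -0.02. Cell division genes had a median of -0.12 at 3 hr and 0.97 at 72 hr, and replication genes 0.02 and 0.44. Ciliated cell markers had a median of -0.43 at 3 hr and 0.27 at 72 hr, fibroblast and matrix genes -0.34 and 0.47, and smooth muscle markers -0.28 and 0.16, so these 3 medians were below the 0 hr level at 3 hr. Macrophage markers went from 0.06 to 0.77. Club cell markers were lower at both times, at -0.17 and -0.40.

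**Figure D4:**
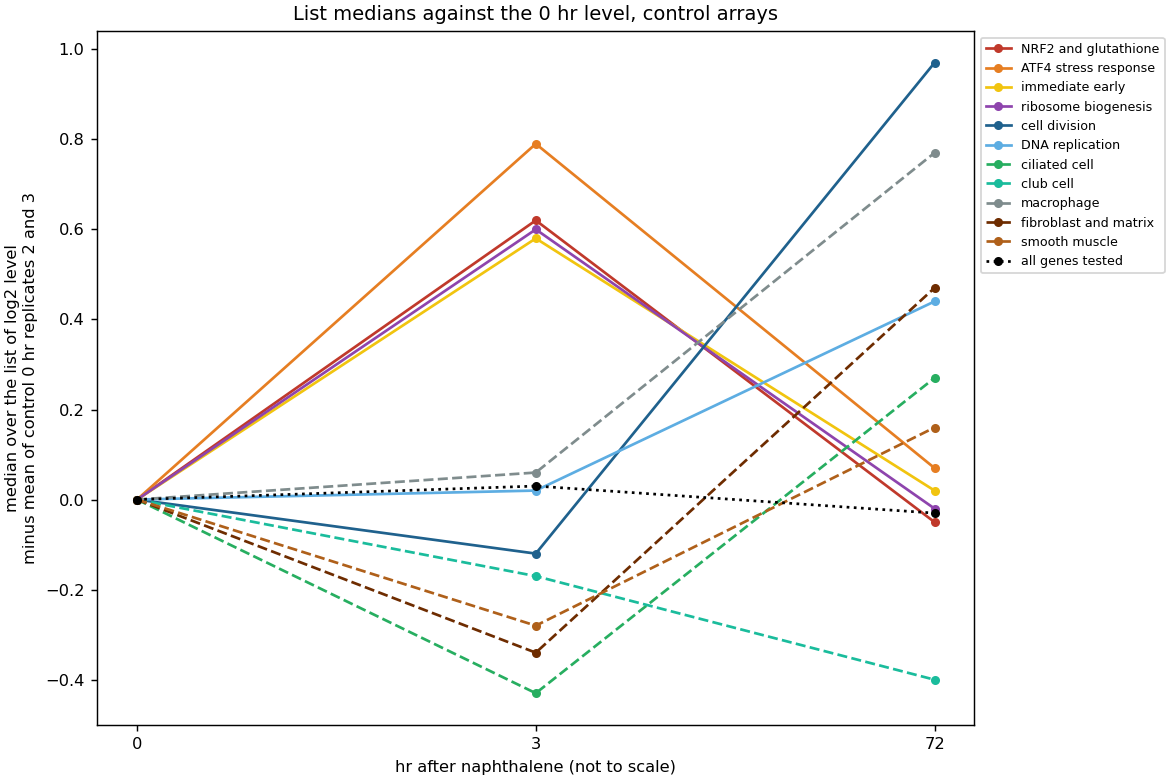
Median over each list of the log2 level minus the mean of control 0 hr replicates 2 and 3 (vertical axis) at 0, 3 and 72 hr (horizontal axis, not to scale); each line is a gene list and the dotted line is all genes. The NRF2, ATF4, immediate early and ribosome lists peak at 3 hr and lie near 0 at 72 hr, and cell division genes reach 0.97 at 72 hr.

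The Cebpa d/d arrays share no array with the control comparison, and most genes moved the same way in them. Of the 1705 genes that rose in control, 1670 had a positive difference in Cebpa d/d, or 97.9%, and 683 rose there, where 4.79% of all genes rose; over all genes 50% of differences were positive. Of the 910 that fell, 859 had a negative difference, or 94.4%, and 331 fell, where 3.20% of all genes fell. The sex of the arrays moved with time in both genotypes, and its part in this likeness was not tested. The median difference of the 1705 genes was 0.70 in control and 0.48 in Cebpa d/d, and that of the 910 was -0.53 and -0.39; the control medians are of genes chosen for their size in control. By list, the median for NRF2 genes was -0.86 in control and -0.65 in Cebpa d/d, for ATF4 genes -0.58 and -0.79, and for cell division 1.10 and 0.96, with 73 of 101 called in Cebpa d/d. For fibroblast and matrix genes it was 0.66 and 0.42, with 3 of 30 called, and for macrophage markers 0.55 and 0.16, with 1 of 23 called. Cebpa d/d 72 hr replicate 1, the array that stood apart, read 6.70 for Adgre1 beside 7.52 and 7.53, and 8.03 for Col6a3 beside 8.97 and 8.74. Why that array read lower was not tested. In a fit without that array, added after the data were seen, the Cebpa d/d median was 0.59 for fibroblast and matrix genes, with 17 of 30 called, and 0.41 for macrophage markers, with 7 of 23 called. Without it the medians for NRF2, ATF4 and cell division genes were -0.77, -0.67 and 1.10. In that fit 985 of the 1705 genes rose and 424 of the 910 fell, where 1396 and 818 of all 19938 genes did.

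Tests of the difference between the genotypes, by limma on the 12 arrays, called 1 of 19938 genes, or 0.00502%. At an unadjusted p under 0.05 there were 1393, or 6.99%. The called gene was Spink5, which read 5.66, 5.53 and 5.43 at 3 hr and 5.37, 5.50 and 5.83 at 72 hr in Cebpa d/d, with full overlap of the times (difference 0.03 ± 0.13 SE). Its Cebpa d/d change minus its control change was -3.74 ± 0.22 (adjusted p = 1.27e-05), and every control array at 72 hr was above every other array of the 12. It was called whichever of the 12 arrays was left out. Among the genes next in order of p, H3c15, a histone gene with near-identical copies, rose by 0.81 ± 0.13 in control and fell by 0.44 ± 0.10 in Cebpa d/d, and the difference between the changes, -1.25 ± 0.17, did not pass (adjusted p = 0.102). For Sftpb it was -0.68 ± 0.11 (adjusted p = 0.199). Ghrl rose by 3.18 in control and differed by 1.30 ± 0.51 in Cebpa d/d, a difference between changes of -1.89 ± 0.60 that did not pass (adjusted p = 0.711), and Pon1 and Pigr, at 2.02 ± 1.21 and 1.51 ± 0.45, did not pass either. Slc7a11 and Hmox1 differed between the genotypes in their change by 0.14 ± 0.33 and -0.22 ± 0.17. For Mki67 it was -0.36 ± 0.32.

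**Figure D5:**
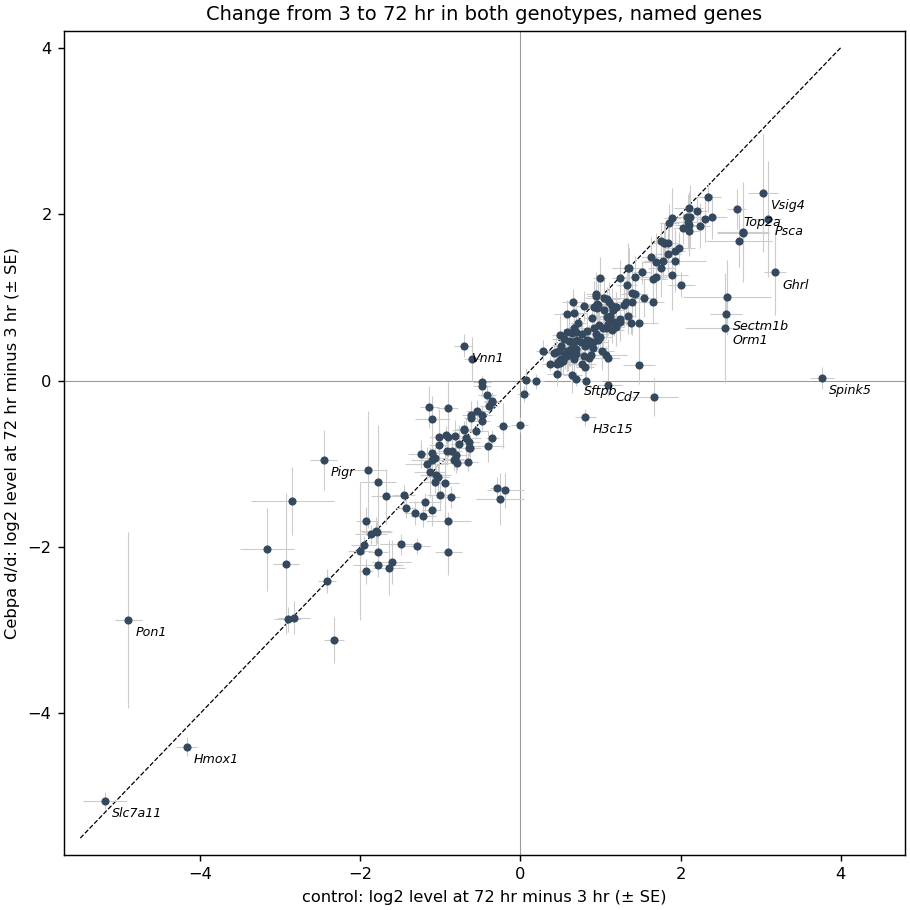
Difference between 72 and 3 hr in control (horizontal axis) and in Cebpa d/d (vertical axis), log2, for the named genes except Xist; bars are standard errors and the dashed line marks equal change. Most genes lie near the line, and Spink5, at 3.77 in control and 0.03 in Cebpa d/d, is the one whose difference between genotypes passed.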

How the data were processed

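Total RNA of terminal bronchiolar epithelial cells was hybridised to Affymetrix Mouse Gene ST arrays, 18 in all, in 6 groups of 3 by genotype and time. The authors deposited log2 values per probe set, which RMA had produced, per the submitters' processing notes; it corrects background, normalizes between arrays and summarises probes; version, build and filters: not given in the sources used here. Background and saturation were not examined, for lack of scanner files in use. The platform annotation paired 21789 of 35557 probe sets with 1 symbol, 1621 with several and 12147 with none; each gene was read from its brightest probe set by mean, giving 19938 genes, 999 of them with several. RefSeq's table for GRCm38.p6 held 19855 of them. No coordinates of probe sets are given. The deposited table held 0 columns of other samples.

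In R 4.3.3 with limma 3.58.1, the 72 and 3 hr means were fitted to the 6 control arrays, with 4 residual degrees of freedom and 4.24 from moderation, and the difference between genotypes to 12 arrays, with 8. Benjamini-Hochberg adjustment ran over all genes, and rose, fell, called and passed mean an adjusted p under 0.05. Differences are on the log2 scale with standard errors (SE); folds are back-transformed. The procedure was tested on simulated data. Sex was read from Xist and Y-linked genes. Sums for cell types add linear levels, so bright markers weigh most. Same-numbered arrays at the 2 times correlated at -0.03, 0.05 and -0.08 in their deviations from the group means. These values gave no sign of a pairing by replicate number, but they cannot exclude a shared batch.

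Members and gene lists were chosen with earlier results of these data known. Genes were named by rule: Cebpa, the 12 largest called rises and falls without overlap between the times, the called members of each list with the smallest adjusted p (6 at most, or 10 for proliferation, oxidative stress, integrated stress and immediate early lists), anchor genes, and the 5 smallest p for the difference between genotypes. Promoter matches used the 250 bases before each RefSeq start. Alternatives changed the arrays in the fit, low-level filter, probe set rule, variance model, array weights, centring, normalization, replicate block, sex term and fold threshold, and left out each array in turn.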

Additional observations from a re-analysis of the deposited data

Results flagged for a closer look

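Spink5 changed differently in the 2 genotypes by a test of that difference: the Cebpa d/d change from 3 to 72 hr minus the control change was -3.74 on the log2 scale, and it was the only gene of 19938 called there. Probe sets without a single gene symbol were outside the comparisons by gene. Among 13768 of them, fitted together by limma with their own adjustment, 4 rose and 3 fell between 3 and 72 hr in control.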

How the results depend on the processing

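With control arrays of both times alone, 1705 genes rose and 910 fell. The number that rose was 489 with sex as a covariate, 1088 with female arrays only, and 401 with a difference of at least 1 required; it ran from 793 to 1915 when any 1 array was left out. The number that fell was 1708 with all 18 arrays in the fit, 1877 with 17 (without the array labelled control 0 hr replicate 1), 315 with sex as a covariate, 117 with a difference of at least 1 and 272 to 1083 when any 1 array was left out. The replicate number as a block gave 1425 that rose and 602 that fell, although no link between same-numbered arrays beyond the label is known. With females only, 1 array stands for 3 hr and is assumed to vary like the others. Risers made up 65.2% of the calls, 56.7% after quantile normalization (added after seeing the data) and 65.1% with arrays centred on their medians. The difference between genotypes had 1 called gene, 2 with all 18 arrays, and 0 when only genes above the median level were tested, since Spink5 lies below it; leaving out both arrays that stand apart, control 3 hr replicate 3 and the Cebpa d/d 72 hr array numbered 1, also gave 1. Of 237 called named genes, 174 kept their call whichever control array was left out, and 156 kept it with the sex term. The text above marks a call lost with that term for only some genes. Values that changed sign were those of Mdm2, -0.01, which was 0.03 with array weights and ran from -0.11 to 0.05 when any 1 array was left out, and of Pcna, 0.07, which was -0.03 after quantile normalization. The cause was not tested.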
